A study of Hordeum vulgare with 21 samples.

Results

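The third day of germination was examined in whole barley grains (Hordeum vulgare, cultivar Conrad) by setting grain collected after 3 days of germination (DoG3) against grain collected 24 h earlier, after 2 days (DoG2). The 2 groups were taken by their sample labels and hold 6 of the 21 libraries of a malting series, 3 replicates A, B and C at each stage. All of this grain was of the same cultivar, came from 1 lot mixed from several fields, and was steeped for 38 h to a moisture of 45% and germinated at 17 °C. It had not been dried in hot air. The other 15 libraries were grain after 5, 4 and 1 days of germination (DoG5, DoG4, DoG1), grain out of the steep (DoG0) and dry unmalted grain (Dry). Replicates of malted grain were separate micromalting runs of 110 g drawn from that lot. The spread behind the p-values was estimated over all 21 libraries, dry grain included. It is thus a spread between replicates, mostly such runs of 1 lot, and may be technical.

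Germinating barley grain holds a growing embryo, which makes the rootlets and the shoot, a living aleurone layer and a dead, starch-filled endosperm. Gibberellin from the embryo is known to make the aleurone secrete enzymes such as alpha-amylase, which break down starch, cell walls and storage protein, and malting uses this breakdown. Transcripts in dry grain are in part messages stored since grain maturation. The RNA here came from whole grain, so its tissues were mixed, and fewer cells of a type and less RNA per cell cannot be told apart. The tables give gene IDs without names and none of the 35826 IDs matched the RefSeq gene table, so the tissue label could not be checked against marker genes. Genes are described as groups, and 4 IDs are named by rule.

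The 3 DoG3 libraries held 28623928 to 30229259 expected counts and the 3 DoG2 libraries 28104928 to 30418742, so 3 counts in a library stood for 0.0972 to 0.105 CPM (counts relative to library size, scaled by TMM), a limit that covers counting error only. Over the 17247 genes with a mean above 1 CPM, Pearson's r of log2 CPM was 0.976 to 0.987 between DoG3 replicates, 0.983 to 0.992 between DoG2 replicates and 0.965 to 0.974 between libraries of the 2 days. The other 15 libraries held 18145400 to 31582116, and the shallowest were DoG5 replicate C (18145400), Dry replicates C (18783859) and B (19206806) and DoG1 replicate A (21252956).

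Most transcripts changed little over the third day. The fitted log2 fold change of DoG3 over DoG2 lay within 0.5 of zero for 76.5% of the 20637 tested genes, against 54.1% on the second day (DoG2 over DoG1) and 82.1% on the fourth (DoG4 over DoG3). Changes of at least 2-fold, with or without a call, were fitted for 8.63% of genes on the third day, 24.6% on the second and 5.73% on the fourth. A call needed an adjusted p under 0.05 in edgeR's quasi-likelihood test with Benjamini-Hochberg adjustment over all tested genes, and 409 genes had one on the third day. They were 1.98% of those tested, where 36.7% were called on the second day and 0.15% on the fourth. Neighbouring steps share a stage, so their difference was tested in the same fit: the change on day 3 was above that on day 2 for 477 genes and below it for 1167 (7.97% in all), and the change on day 4 differed from that on day 3 for 59 genes (0.286%). These differences keep the sign of each change, so they do not test whether a step was smaller than the one before.

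**Figure D1:**
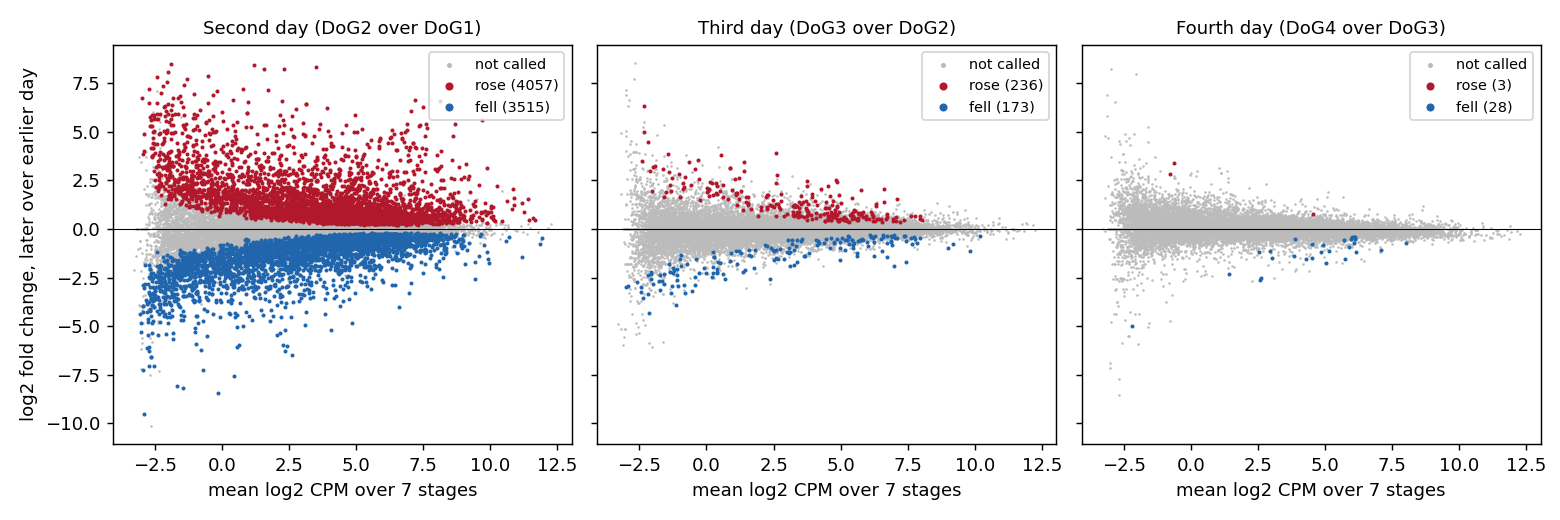
Log2 fold change of every tested gene (later over earlier day) against its mean log2 CPM over the 7 stages, for day 2, day 3 and day 4; red and blue points passed the edgeR test at an adjusted p under 0.05, and grey points did not. The third day has 236 red and 173 blue points, fewer than the second day and more than the fourth.

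Of the called genes 236 rose and 173 fell, which is 1.14% and 0.838% of the tested genes. The rises were 1.09 on the log2 scale in the median (25th to 75th percentile 0.66 to 1.79), and 124 of them were at least 2-fold (with the falls, 1.08% of tested genes), 46 at least 4-fold and 17 at least 8-fold. The falls had a median log2 fold change of -1.17 (-2.13 to -0.62), and 99 were at least 2-fold, 48 at least 4-fold and 9 at least 8-fold. The smallest called changes were 0.34 up and 0.31 down, and the median standard error of a log2 fold change was 0.21 among the rises and 0.25 among the falls. Replicates of the 2 days did not overlap in CPM for 234 of the 236 rising and all 173 falling genes, a separation also seen in 35.1% of all tested genes. The count rested on all 6 libraries: 178, 169 and 101 genes were called when DoG3 replicate A, B or C was left out, and 134, 83 and 75 when DoG2 replicate A, B or C was. It also rested on which libraries estimated the spread, with 2440 genes called from the 6 libraries alone, 395 of them shared with the 409 in the same direction.

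Called genes ranged from scarce to abundant. The median CPM at the higher of the 2 days was 23.2 for rising genes and 12.6 for falling ones, against 11.9 over all tested genes, and 24 rising and 30 falling genes reached 100 CPM. The rising genes held 1.04%, 1.01% and 1.02% of all TPM (transcript abundance corrected for length, with the same total in each library) in DoG3 replicates A, B and C, against 0.590%, 0.569% and 0.550% in DoG2 replicates A, B and C. The falling genes held 0.759%, 0.667% and 0.684% in DoG3, against 1.14%, 1.18% and 1.28% in DoG2. The genes were chosen on these libraries, so the shares describe how much of the transcript pool the called genes held and were not tested. Changes in genes without a call are not counted in them. The gain was spread over many genes and the loss over fewer: the 10 largest differences in mean TPM made up 27.5% of the summed rise and 52.6% of the summed fall.

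**Figure D2:**
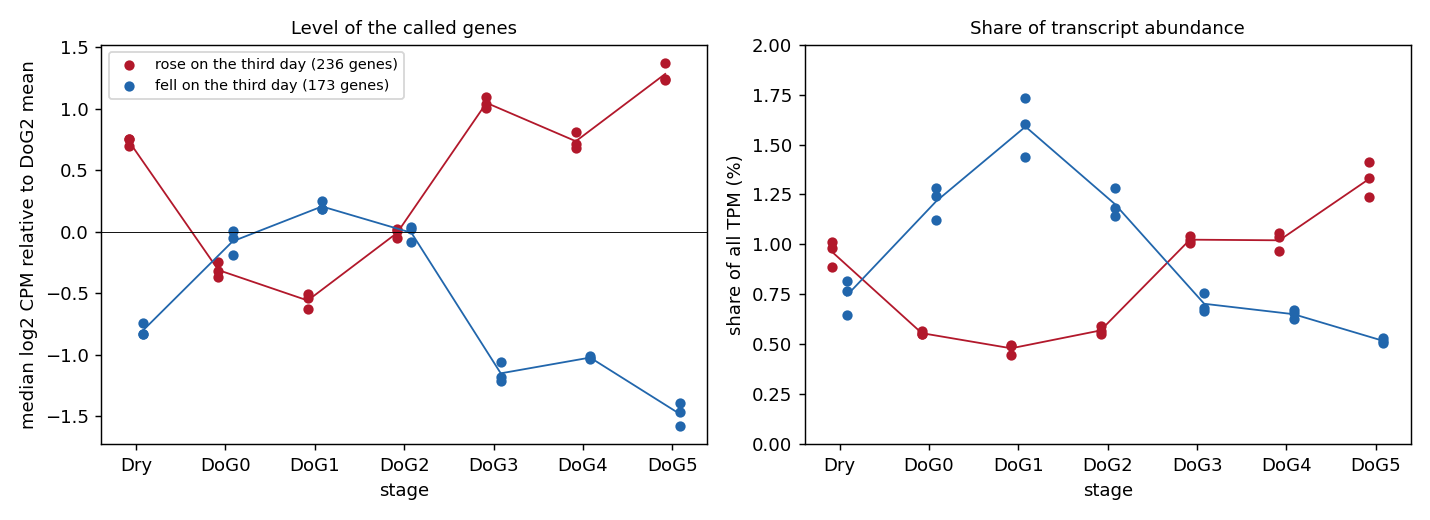
Left, the median over genes of log2 CPM relative to the DoG2 mean, and right, the share of all TPM in percent, for the 236 genes that rose (red) and the 173 that fell (blue) on the third day; each point is 1 library and lines join stage means. In the left panel the rising genes are lowest at DoG1 and highest at DoG5, and stand at 0.73 in dry grain and 0.74 at DoG4, and the falling genes have their highest median level at DoG1.

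The genes that rose had mostly been present before. In dry grain their median log2 CPM was 0.73 ± 0.03 above the DoG2 level, at DoG0 and DoG1 it was -0.31 ± 0.06 and -0.56 ± 0.06, and at DoG3, DoG4 and DoG5 it was 1.05 ± 0.05, 0.74 ± 0.06 and 1.28 ± 0.08 (SD over 3 libraries). Stage means were highest in dry grain for 95 of the 236 genes (40.3%, against 28.4% of all tested genes), at DoG5 for 92 (39.0% against 12.6%) and at DoG3 itself for 24 (10.2% against 6.08%), an order that the choice of genes higher at DoG3 than at DoG2 favours in part. Dry libraries held no count at all of 15 rising genes, and 5 had none in any dry, DoG0 or DoG1 library.

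The steeping comparison, DoG0 over Dry, shares no library with the third day and divided the rising genes into 3 groups. Of the 236, 146 were lower at DoG0 than in dry grain, or 61.9%, where 32% of all tested genes were (edgeR adjusted p under 0.05). These 146 genes summed to 7868 ± 171 TPM at DoG3, against 4562 ± 140 at DoG2, and to 2991 ± 192 TPM at DoG1 and 8681 ± 494 TPM in dry grain (SD, n = 3 each). A second group of 72 genes had no call at steeping and the largest day 3 rises, with a median log2 fold change of 1.76, and 23 of them rose by at least 4-fold. Their summed level was 1841 ± 48.7 TPM at DoG3 and 877 ± 50.6 at DoG2, and 752 ± 136 TPM in dry grain. The last 18 genes were higher at DoG0 than in dry grain, 7.63% of the rising genes against 29.2% of all tested genes, and summed to 530 ± 60.7 TPM at DoG3 and 256 ± 15.9 at DoG2. Because the steeping call defines the groups, their order in dry grain and at DoG0 follows from that choice.

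The genes that fell had their highest median level at DoG1. Their median log2 CPM relative to DoG2 was -0.80 ± 0.05 in dry grain, -0.08 ± 0.10 at DoG0, 0.21 ± 0.04 at DoG1, -1.15 ± 0.08 at DoG3, -1.02 ± 0.01 at DoG4 and -1.48 ± 0.09 at DoG5 (SD over 3 libraries). Stage means were highest at DoG2 for 59 of the 173 genes (34.1%, against 8.49% of all tested genes), at DoG1 for 49 (28.3% against 15.7%), at DoG0 for 40 (23.1% against 20.8%) and in dry grain for 25 (14.5% against 28.4%). The choice of genes with DoG2 above DoG3 favours a high at DoG2 and bars one at DoG3, so these shares are a description. The day 1 comparison, DoG1 over DoG0, also shares no library with the third day, and 73 of the falling genes were higher at DoG1, or 42.2%, against 28.4% of all tested genes. These 73 had the largest falls, with a median log2 fold change of -1.86 and 34 of at least 4-fold. Their summed level was 3274 ± 297 TPM at DoG3 and 6035 ± 317 TPM at DoG2, and 7554 ± 1010 TPM at DoG1 and 3780 ± 417 TPM at DoG0 (SD, n = 3 each). Their median log2 CPM was -0.34 at DoG1 relative to DoG2, so the sum was higher at DoG1 but the median was higher at DoG2. Another 31 genes were lower at DoG1 than at DoG0, 17.9% against 23.8% of all tested genes, and summed to 648 ± 8.66 TPM at DoG3 and 1024 ± 109 at DoG2. The other 69 had no call on the first day and summed to 3108 ± 186 TPM at DoG3 and 4963 ± 322 at DoG2.

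**Figure D3:**
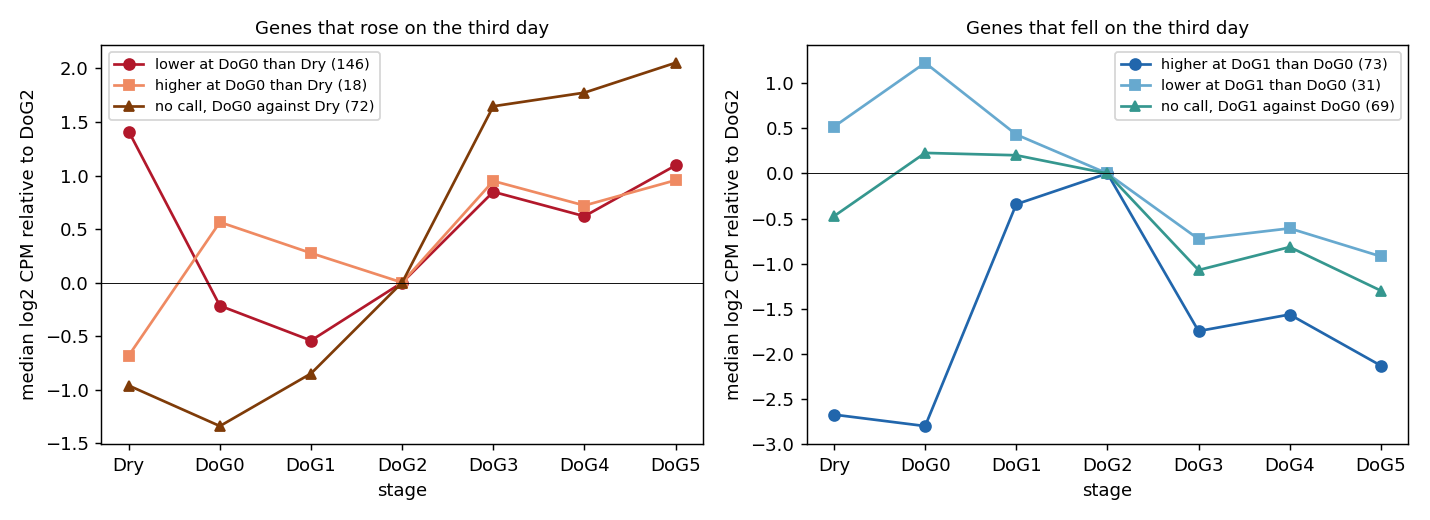
Median log2 CPM relative to DoG2 at the 7 stages for genes that rose (left) and fell (right) on the third day, grouped by an earlier comparison that used neither DoG2 nor DoG3; numbers in parentheses are genes. The 146 genes lower after steeping stand at 1.41 in dry grain and 1.09 at DoG5. The 73 genes higher after the first day stand at -2.80 at DoG0, -0.34 at DoG1, 0 at DoG2 and -1.75 at DoG3.

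The direction of the third day was also that from day 1 to day 5 for most called genes. Rising genes were lowest and falling genes highest in the median at DoG1 (-0.56 and 0.21 relative to DoG2), which favours such agreement. Day 5 over day 1, a comparison with no library of DoG2 or DoG3, was higher for 219 of the 236 genes that had risen, or 92.8%, where 28.3% of all tested genes were higher, and lower for 4 of them. It was lower for 128 of the 173 that had fallen, or 74%, against 27.1% of all tested genes, and higher for 13. The median log2 fold change of DoG5 over DoG1 was 1.84 among the rising genes, -1.18 among the falling ones and -0.01 over all tested genes. Seen from DoG0, the median level relative to DoG2 went from -0.31 to 1.28 at DoG5 among the rising genes. Among the 73 falling genes higher at DoG1 than at DoG0 it went from -2.80 to -2.13, so their median ended above its DoG0 level. Their summed level ended below it, at 2279 ± 47.1 TPM at DoG5 against 3780 ± 417 TPM at DoG0 (SD, n = 3 each). For the 31 lower at DoG1 the median level went from 1.23 to -0.92, and for the other 69 from 0.23 to -1.3. Most called genes also differed from day 1 in the same direction at day 4: DoG4 over DoG1 was higher for 190 of the rising genes (80.5%, against 26.3% of all tested) and lower for 113 of the falling ones (65.3%, against 25.7%). Its median log2 fold change was 1.295 among the rising genes and -0.83 among the falling ones.

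In the median, the rise and fall did not continue evenly over the last days. Among the 236 rising genes the median log2 fold change was 0.54 on the second day, 1.09 on the third, -0.20 on the fourth and 0.43 on the fifth, and among the 173 falling genes it was -0.21, -1.17, 0.03 and -0.45. Gene by gene, the day 4 change was below the day 3 change for 46 of the rising genes (19.5%, against 0.257% of all tested). It was above it for 6 of the falling ones (3.47%, against 0.0291%; edgeR adjusted p under 0.05). On day 4 itself 13 rising genes were called lower (5.51%, against 0.136%), and no falling gene was called in either direction. Day 2 shares DoG2 and day 4 shares DoG3 with day 3, so a part of these contrasts follows from the choice of genes. The fifth day does not share a library with it. DoG5 lay above DoG4 in mean CPM for 214 of the rising genes, or 90.7%, where 50.5% of all tested genes did, and the replicates of DoG5 and DoG4 did not overlap, with DoG5 higher, in 136 of them (57.6%, against 8.52%). DoG5 lay below DoG4 for 163 of the falling genes, or 94.2% against 49.4%, without overlap for 103 of them (59.5%, against 9.49%). Over all tested genes the median day 5 change was 0.003 on the log2 scale.

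All 22 genes that rose on the fifth day (0.107% of tested genes, edgeR adjusted p under 0.05) were among the 236 that had risen on the third. Only 4 genes fell on the fifth day by the same test (0.0194%), and 1 of them was among the 173 that had fallen on the third. The following values are those of the 22. Their day 3 log2 fold changes ran from 0.50 to 3.90 with a median of 1.88, and their day 5 changes from 0.45 to 2.88 with a median of 1.47. Together they summed to 864, 874 and 837 TPM in DoG3 replicates A, B and C, against 364, 332 and 318 TPM in DoG2 replicates A, B and C. They summed to 970, 1049 and 1084 TPM in DoG5 replicates A, B and C, against 425, 425 and 398 TPM in DoG4 replicates A, B and C. The DoG3 and DoG5 libraries thus lay above every DoG2 and DoG4 library, which restates the calls that chose these genes. Grain was collected at the same time each day and the labels name no batch, so a stage and the collection it came from cannot be told apart. The same genes summed to 371 ± 32.2 TPM at DoG1 and to 1251 ± 86.8 TPM in dry grain (SD, n = 3 each). Of the 22, 17 were lower at DoG0 than in dry grain, where 61.9% of the 236 rising genes and 32% of all tested genes were. On the fourth day 10 of the 22 passed the test as lower, with log2 fold changes from -2.60 to -0.54, where 0.136% of all tested genes did, a comparison that shares DoG3 and DoG4 with those that chose the 22. The genes called on both days numbered 7 without DoG4 replicate A, 7 without B and 7 without C, and 9 without DoG5 replicate B and 16 without the shallower DoG5 replicate C. Not every setting put all fifth-day rises among the third-day rises: 21 of 29 were with limma on log2(TPM + 1), 54 of 82 with DESeq2, 35 of 38 with the 18 malted libraries and 86 of 124 with the 12 libraries of DoG2 to DoG5. It was 15 of 18, 15 of 19 and 18 of 22 without DoG2 replicate A, B or C, and 18 of 20, 18 of 21 and 17 of 20 without DoG3 replicate A, B or C. Without DoG5 replicate A it was 23 of 30. Without any DoG4 library, or DoG5 replicate B or C, all fifth-day rises were among the third-day rises.

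**Figure D4:**
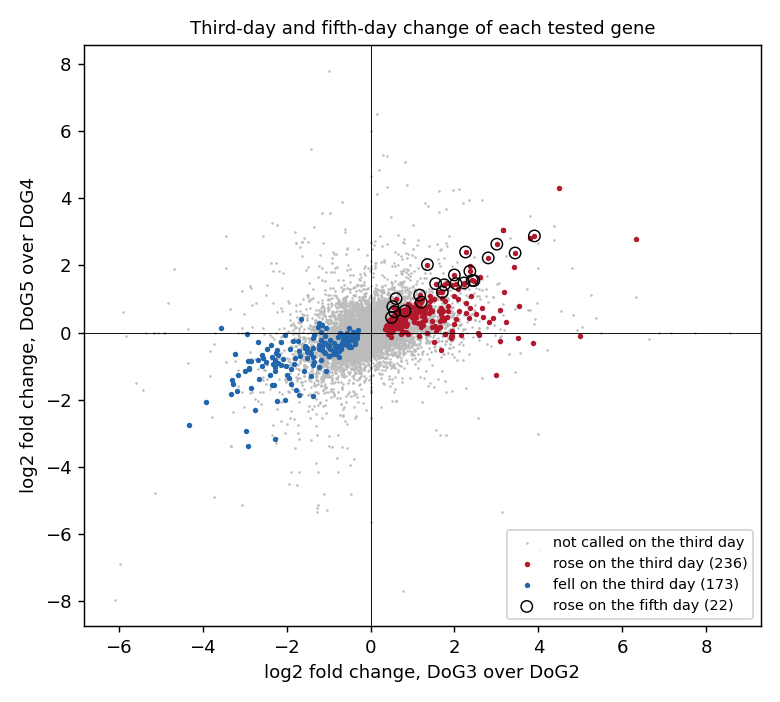
Log2 fold change of DoG5 over DoG4 against that of DoG3 over DoG2 for every tested gene, 2 comparisons without a common library; red and blue points rose or fell on the third day, and rings mark the 22 genes that rose on the fifth day. All rings lie on red points, and 214 of the 236 red genes had a higher mean at DoG5 than at DoG4.

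The ID with the largest day 3 rise among called genes of at least 20 CPM was HORVU.MOREX.r3.6HG0577940. It had 39.9, 51.1 and 45.3 TPM in DoG3 replicates A, B and C, against 2.85, 3.52 and 2.77 TPM in DoG2 replicates A, B and C (log2 fold change 3.90, SE 0.28, edgeR adjusted p = 1.28e-06). The 2 days did not overlap, and the gene was then low again in every DoG4 library and high in every DoG5 library. It had 8.92, 6.49 and 7.79 TPM at DoG4 (log2 fold change over DoG3 -2.60, SE 0.26, adjusted p = 0.00022) and 50.5, 51.8 and 66.3 TPM at DoG5 (over DoG4 2.88, SE 0.26, adjusted p = 5.37e-05). Its day 4 and day 3 changes differed by -6.51 on the log2 scale (SE 0.42, adjusted p = 2.2e-07). Dry grain held 23.7 ± 7.31 TPM of it, DoG0 4.71 ± 2.33 and DoG1 3.04 ± 0.511 (SD, n = 3 each). It is 1 of the 22 genes, and its day 3 call held in all 15 alternative settings tried.

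The ID with the largest gain in TPM among called genes was HORVU.MOREX.r3.5HG0473560. It had 578, 323 and 371 TPM in DoG3 replicates A, B and C, against 100.2, 196 and 99.1 TPM in DoG2 replicates A, B and C (log2 fold change 1.70, SE 0.35, edgeR adjusted p = 0.0207). Replicates varied widely but did not overlap. Dry grain held 8.31 ± 3.5 TPM of it, and it was lower at DoG0 (log2 fold change over Dry -4.37, SE 0.56, edgeR adjusted p = 3.07e-06). From DoG0 on its stage means were in rising order, with 0.58 ± 0.452 TPM at DoG0, 10.97 ± 3.3 at DoG1, 570 ± 229 at DoG4 and 768 ± 190 at DoG5 (SD, n = 3 each), and DoG4 over DoG3 did not pass the test (0.38, SE 0.34, adjusted p = 0.773). Its expected counts were fractional in all 21 libraries, which marks reads shared with a similar sequence, so its level is uncertain. Its day 3 call was lost without DoG3 replicate A or C or DoG2 replicate A or C (edgeR adjusted p = 0.0506 to 0.122).

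The largest fall among called genes of at least 20 CPM was that of HORVU.MOREX.r3.2HG0127550. It had 21.2, 17.9 and 17.2 TPM in DoG3 replicates A, B and C, against 66.5, 87.1 and 73.2 TPM in DoG2 replicates A, B and C (log2 fold change -1.99, SE 0.47, edgeR adjusted p = 0.038). DoG2 was its highest stage, and the others had 1.88 ± 1.07 TPM in dry grain, 1.07 ± 0.748 at DoG0, 9.56 ± 5.33 at DoG1, 20.06 ± 4.53 at DoG4 and 7.96 ± 3.92 at DoG5 (SD, n = 3 each). The day 2 rise before it was 3.17 on the log2 scale (SE 0.50, adjusted p = 0.000101). The day 3 call was lost without any 1 of the 6 libraries (adjusted p = 0.0849 to 0.155), with log2 fold changes of -2.08 to -1.85.

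The largest loss in TPM among called genes was that of HORVU.MOREX.r3.2HG0139380, the 139th most abundant tested gene at DoG3 and the 44th at DoG2. It had 1055, 776 and 756 TPM in DoG3 replicates A, B and C, against 1942, 1951 and 1776 TPM in DoG2 replicates A, B and C (log2 fold change -1.11, SE 0.24, edgeR adjusted p = 0.0279). The 2 days did not overlap, and the gene had 866 ± 35.8 TPM at DoG4 and 574 ± 31.1 at DoG5. It had been 272 ± 132 TPM in dry grain, 252 ± 43.2 at DoG0 and 1293 ± 438 at DoG1 (SD, n = 3 each). Its mean fell by 1028 TPM, in a group of falling genes whose summed mean fell by 4990.5 TPM, and its call was lost without any 1 of the libraries except DoG3 replicate A (adjusted p = 0.0812 to 0.131).

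**Figure D5:**
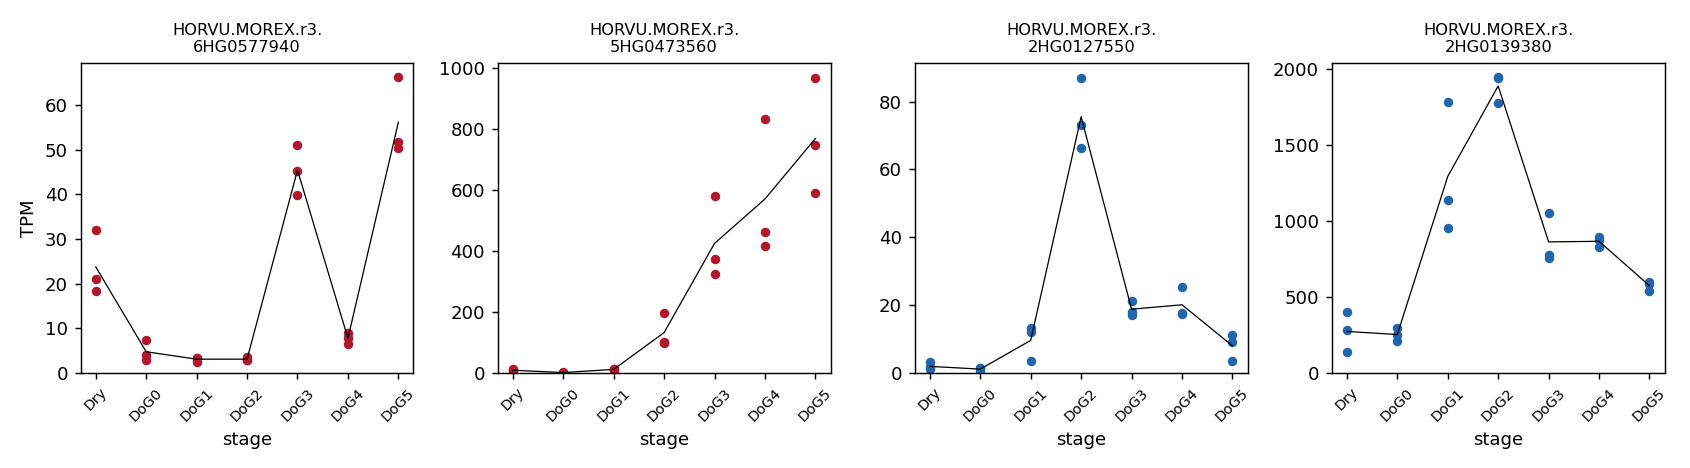
TPM of the 4 named IDs in each of the 21 libraries by stage, with lines through stage means; the 2 left panels (red) rose on the third day and the 2 right panels (blue) fell, and each panel has its own scale from 0. The first ID is high at DoG3 and DoG5 and low at DoG2 and DoG4, and the third has its highest values, 66.5 to 87.1 TPM, at DoG2.

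The called genes lay on all 7 chromosome codes that the IDs carry. Rising genes were 0.769% of tested genes with the code 6H and 1.05% to 1.34% of those with the other codes from 1H to 7H, and falling genes were 0.564% (4H) to 1.12% (3H). None of the 33 tested genes with the code Un was called. Some called genes stood beside each other in the order of the IDs: 18 of the 236 rising genes, or 7.63%, were next to another rising gene on the same code, where 2.26% of all tested genes were. The same held for 8 of the 173 falling genes, 4.62% against 1.66%. No run was longer than 2 genes. Of the 18 rising neighbours 10 had a fractional count in some library, so reads shared between similar neighbours were among them, and their part in this was not tested. Over all called genes fractional counts were found in 39 of the rising (16.5%) and 31 of the falling genes (17.9%), against 18.5% of tested genes. The median relative transcript length was 0.943 for rising, 0.990 for falling and 0.977 for all tested genes, where 1 is the median of a library.

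Tests of how concentrated the transcript pool was cannot pass 0.05 with 3 libraries a day, so the values are a description. The 100 most abundant genes held 22.8% ± 0.691 of TPM at DoG3 and 22.9% ± 0.639 at DoG2, and the 10 most abundant held 6.10% ± 0.166 at DoG3 and 6.38% ± 0.328 at DoG2. It took 696 ± 34.8 genes at DoG3 and 704 ± 31.0 at DoG2 to reach 50% of TPM, and the number with a TPM above 0 was 22945 ± 307 at DoG3 and 23059 ± 85.9 at DoG2 (SD, n = 3 each). Exact two-sided permutation tests gave p = 1, 0.2, 0.8 and 0.6 for these 4 measures (adjusted over the 4, 1, 0.8, 1 and 1), in a design of 3 against 3 whose smallest p is 0.1. On expected counts, which are not corrected for transcript length, the 10 most abundant genes held 5.07% ± 0.108 at DoG3 and 5.53% ± 0.224 at DoG2 without overlap, at that smallest p of 0.1 (exact two-sided permutation, not adjusted). The 100 most abundant held 20.04% ± 0.342 of counts at DoG3 and 20.8% ± 0.587 at DoG2 (exact two-sided permutation p = 0.2), a difference of -0.753 percentage points, against -0.117 in TPM.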

How the data were processed

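For 21 poly-A selected, strand-preserving libraries the authors deposited TPM and expected counts per gene, estimates that can be fractional. Per the submitters' processing notes STAR and RSEM were used, with no version or role stated. The sources used here give no genome build, annotation or strand setting. Expected counts were rounded for the count tests. Genes passed filterByExpr at a minimum count of 10 in 3 libraries and a minimum total of 15, which left 20637 with at least 99.9% of the counts of each library. TMM scaling and a quasi-likelihood fit of 7 stage means over all libraries followed (edgeR 4.0.16, R 4.3.3), with one shared estimate of the spread. A standard error is the log2 fold change over the square root of F. Median levels are log2 CPM with a prior count of 2. Relative length is expected count over TPM (from 10 counts and 0.5 TPM). The fit was tested on simulated data. Of the 4 named IDs, 2 have the largest fold changes among genes of at least 20 CPM and 2 the largest TPM differences, all called and without overlap. Gene lists and cell type markers fixed by name could not be used, and no sequence is shown, since none could be paired with the IDs. The comparison, the tests and this rule were chosen with earlier results of these data known, and the groups by steeping or first-day call and the counts for day 5 over day 4 after values were seen.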

Additional observations from a re-analysis of the deposited data

How the results depend on the processing

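The number of genes called on the third day (409, 236 rising and 173 falling) depended on which libraries set the spread and on the tool. It was 2440 (1220 and 1220) with only the 6 libraries of the step, 944 (492 and 452) with the 18 malted libraries, 1991 (917 and 1074) with DoG2 to DoG5, 1097 (645 and 452) with DESeq2 and 223 (124 and 99) for changes of at least 2-fold, and the cause was not tested. All 409 genes kept their call and direction with the 18 and the 12 libraries, 404 with DESeq2 and 280 with limma on log2(TPM + 1), which called 458. DESeq2 size factors, library size only and no filter gave 414, 323 and 300. Leaving out 1 library gave 75 to 178 genes, 50 to 128 rising and 23 to 66 falling. Replicate letters were not treated as pairs, because the labels do not say that a letter follows a run and deviations of same-letter libraries correlated at -0.125 to -0.0136. A replicate block over the malted libraries called 718 genes (374 and 344). The second-day and third-day changes differed for 2598 genes with the malted libraries. The third-day and fourth-day changes differed for 98 genes with the malted libraries, 282 with DoG2 to DoG5 and 38 with library size only. Genes that rose on both the third and the fifth day (22) numbered 9 with each step fitted alone, 35 with the malted libraries, 86 with DoG2 to DoG5, 54 with DESeq2 and 7 to 23 with 1 library left out, in alternatives chosen after seeing the data. The day 5 over day 1 counts stayed within 210 to 220 of 236 and 128 to 131 of 173 under all 4 alternatives tried.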
